A study of Homo sapiens with 16 samples.

Results

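Keratins are the intermediate filament proteins of epithelial cells, and their transcripts were followed here in fibroblasts. The 9 keratin genes described, KRT7, KRT8, KRT14, KRT17, KRT18, KRT19, KRT34, KRT80 and KRT81, were selected by their measured transcript levels in these same libraries, out of 54 keratin genes in the table. Their levels are therefore a description. Results of these data were already known when the 9 genes were chosen, the response of KRT34 to low oxygen in immortalized cells among them, so the counts of changed keratins are no independent evidence of a keratin response.

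The study sequenced mRNA from 4 isogenic stages of the human fibroblast line BJ, each grown in Dulbecco's modified Eagle's medium with serum for 6 passages at atmospheric or at 3% oxygen. Primary cells are unmodified BJ fibroblasts. Immortalized cells (BJ hTERT+) carry the catalytic subunit of telomerase, transformed cells (BJ hTERT+ SV40+) carry in addition the SV40 large T antigen, and metastasizing cells (BJ hTERT+ SV40+ Ras-G12V) carry in addition an activated H-Ras. Each of the 8 groups held 2 libraries, a and b, from plates grown in parallel, 16 libraries in all. Each stage is 1 line and all stages descend from 1 fibroblast line, so a stage and the history of its line cannot be told apart, and p-values measure only the spread between plates. The deposited unit is TPM, a transcript's share of all transcripts after correction for its length, and gene levels are sums over a gene's transcripts. The depth of the libraries is unknown, since TPM holds no read counts.

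A keratin filament needs a pair of partners, an acidic type I keratin and a neutral or basic type II keratin, and neither assembles alone. KRT18 and KRT8 form the pair of simple epithelia, KRT19 and KRT7 are found in ductal and other simple epithelia, KRT14 is the type I keratin of basal layers of stratified epithelia, and KRT17 is a type I keratin of skin appendages and of stressed or wounded epidermis. KRT34 (type I) and KRT81 (type II) are hair keratins, and KRT80 is a type II keratin of differentiating epithelia. Fibroblasts build their filaments mainly from vimentin, although cultured fibroblasts and other mesenchymal cells are known to express simple keratins at times. Of the 9 genes, 5 are type I and 4 are type II. The type I genes lie on chromosome 17, apart from KRT18, which lies beside KRT8 in the type II cluster on chromosome 12.

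Fibroblast markers were detected in every group, at lower summed levels in transformed and metastasizing cells. VIM, which encodes vimentin, lay between 2619 and 6211 TPM in the 16 libraries, and 17 or 18 of 18 fibroblast markers reached a mean of 1 TPM in every group. The summed level of these markers was 18771 to 27404 TPM in primary and immortalized libraries and 5093 to 8011 TPM in transformed and metastasizing libraries. By the test described further on, 10 of 18 were called lower and 1 higher from immortalized to transformed cells at atmospheric oxygen. Of all genes, 11.2% were called lower there and 13.2% higher. At 3% oxygen 12 of 18 were called lower and 1 higher, beside 7.38% and 8.96% of all genes. Of 17 epithelial markers only 1 or 2 reached a mean of 1 TPM in any group, with summed levels of 4.06 to 22.9 TPM. Among the defining epithelial genes, CDH1 did not exceed 2.80 TPM, EPCAM did not exceed 1.44 TPM, and TP63 and GRHL2 stayed at or below 0.548 and 0.0889 TPM. The duplicates of metastasizing cells at 3% oxygen stood apart: 13.3% of the genes differed by more than 2-fold between them, against 2.56 to 5.41% in the other 7 groups.

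The label "expressed" held for 8 of the 9 genes. With the study's own cut-off of 1 TPM, KRT7, KRT8, KRT17, KRT18, KRT34, KRT80 and KRT81 were above it in all 16 libraries and KRT19 in 13 of 16. KRT14 was never above it. It was listed at 0 in 10 libraries and its highest value was 0.473 TPM, so KRT14 was not tested in any comparison and the counts given further on are of 8 genes. Among the 45 keratins outside the chosen set, 5 reached a group mean of 1 TPM, and KRT10, at 8.18 to 15.0 TPM, lay above KRT17 in every group. The remaining 40 stayed at or below 0.87 TPM in every library, 15 of them at 0 throughout. The 9 chosen genes made up 95.0 to 98.4% of all keratin TPM in each group.

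**Figure D1:**
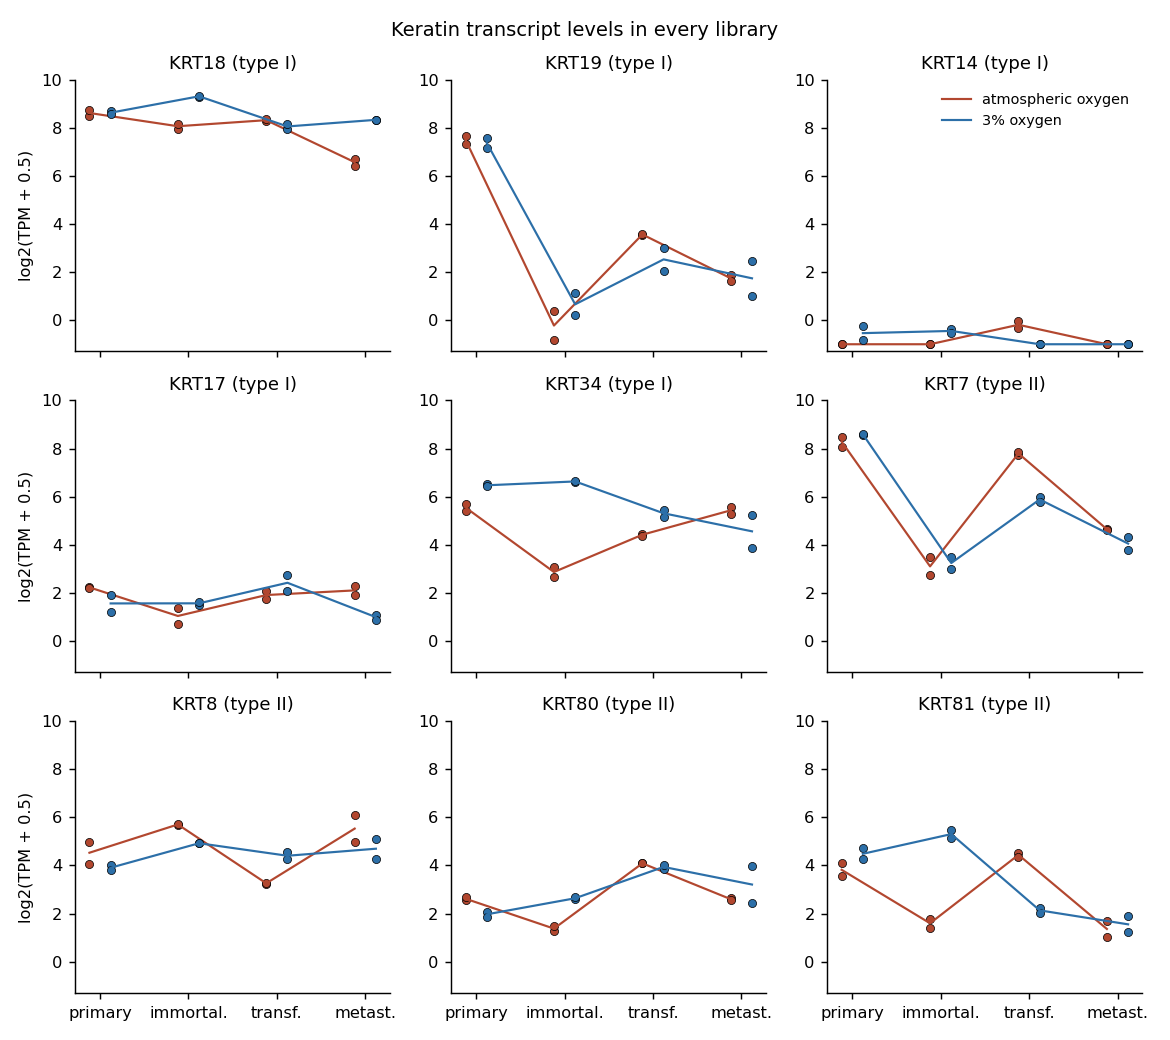
Level of each keratin on the log2(TPM + 0.5) scale (vertical axis) in the 4 stages (horizontal axis), atmospheric oxygen in red and 3% oxygen in blue; each point is 1 library and lines join the means of the 2 libraries. KRT7 and KRT19 drop together in immortalized cells at both oxygen levels, KRT34 and KRT81 separate by oxygen in immortalized cells, and KRT14 stays at the floor.

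Keratin transcripts as a whole were most abundant in primary cells. The 9 genes summed to 865 and 1105 TPM at atmospheric oxygen and to 1124 and 1036 TPM at 3% oxygen, so the duplicates of the 2 oxygen levels overlapped. In immortalized cells the sum was 317 and 366 TPM at atmospheric oxygen and 817 and 825 TPM at 3% oxygen. In transformed cells the order was the opposite, with 605 and 642 TPM at atmospheric oxygen and 404 and 426 TPM at 3% oxygen. Metastasizing cells had the lowest sums at atmospheric oxygen, 260 and 192 TPM, and 436 and 380 TPM at 3% oxygen. Set against vimentin, the keratin sum amounted to between 6.11% of the VIM level, in a metastasizing library at atmospheric oxygen, and 25.1%, in an immortalized library at 3% oxygen. No test is given for such sums, since the smallest two-sided p of an exact permutation test of 2 libraries against 2 is 0.333.

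Type I transcripts exceeded type II transcripts in every library. The ratio was 1.32 in both transformed libraries at atmospheric oxygen and 1.43 to 1.84 in primary libraries. It was 8.09 and 9.58 in immortalized libraries at 3% oxygen, where type I keratins averaged 737 ± 14.2 TPM (SD, n = 2) and type II keratins 83.9 ± 8.37 TPM (SD, n = 2). The ratio reached 5.14 and 8.49 in metastasizing libraries at 3% oxygen and 1.59 and 2.08 at atmospheric oxygen. Type II keratins averaged 81.4 TPM in the latter, and a short KRT8 transcript described further on gave 58.2 and 22.0 TPM of their sums. At 3% oxygen this transcript gave 19.6 and 0 TPM. Its presence thus lowered the ratio more at atmospheric oxygen, and the ratio without it was not tested. KRT18 alone made up 78.5% of the keratin sum in immortalized cells at atmospheric oxygen and 77.3% at 3% oxygen, against 40.0% and 36.7% in primary cells. KRT7 made up 32.0% and 35.7% of the sum in primary cells and 2.45% and 1.11% in immortalized cells.

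**Figure D2:**
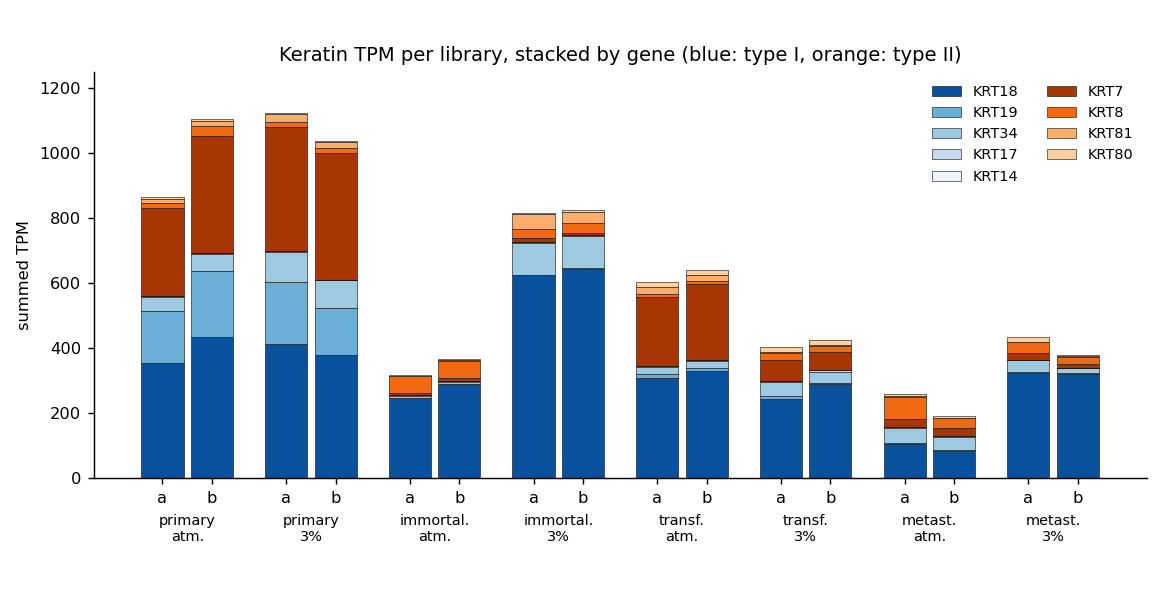
Summed TPM of the 9 keratins (vertical axis) in each of the 16 libraries (a and b within each stage and oxygen level), stacked by gene with type I keratins in blue and type II keratins in orange. KRT18 is the largest block in every library except replicate b of primary cells at 3% oxygen, where KRT7 is larger, and the KRT7 and KRT19 blocks seen in primary cells are nearly gone in immortalized cells.

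KRT18 (chr12:53342655-53346690, GRCh37), the type I partner of KRT8, was the most abundant keratin on average. In primary cells its level was 354 and 434 TPM at atmospheric oxygen and 412 and 379 TPM at 3% oxygen, with overlapping duplicates. In immortalized cells it was 248 and 289 TPM at atmospheric oxygen and 625 and 645 TPM at 3% oxygen, the highest levels of any keratin in any library. Transformed cells had 309 and 329 TPM at atmospheric oxygen and 245 and 289 TPM at 3% oxygen. Metastasizing cells had 105 and 85.4 TPM at atmospheric oxygen, below every other group, and 324 and 319 TPM at 3% oxygen. The gap between oxygen levels was thus wide in immortalized and metastasizing cells and absent or small in the other stages.

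KRT19 (chr17:39679869-39684560), an unusually short type I keratin of ductal epithelia, separated primary cells from all later stages. It stood at 161 and 203 TPM at atmospheric oxygen and 192 and 143 TPM at 3% oxygen in primary cells. In immortalized cells it was 0.804 and 0.0637 TPM at atmospheric oxygen and 1.68 and 0.647 TPM at 3% oxygen. It came back only in small part, to 11.2 and 11.5 TPM in transformed cells at atmospheric oxygen and 7.46 and 3.69 TPM at 3% oxygen. In metastasizing cells it was 3.14 and 2.58 TPM at atmospheric oxygen and 1.50 and 5.08 TPM at 3% oxygen. The 2 oxygen levels overlapped in primary, immortalized and metastasizing cells and did not overlap in transformed cells.

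KRT34 (chr17:39533921-39538558), a type I keratin of the hair cortex, was expressed in all stages. It measured 41.2 and 51.9 TPM in primary cells at atmospheric oxygen and 90.6 and 86.0 TPM at 3% oxygen. In immortalized cells it was 5.79 and 7.94 TPM at atmospheric oxygen and 98.2 and 99.2 TPM at 3% oxygen, the lowest and the highest pair among the 8 groups. Transformed cells had 21.5 and 20.2 TPM at atmospheric oxygen and 43.2 and 35.5 TPM at 3% oxygen. In metastasizing cells the pair at atmospheric oxygen, 47.3 and 38.5 TPM, lay above the pair at 3% oxygen, 37.6 and 14.1 TPM, and the last 2 libraries differed widely from each other.

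KRT17 (chr17:39775694-39781094), the type I keratin linked to stress and wounding in skin, stayed low, between 1.13 and 6.25 TPM, with a median of 3.05 TPM over the libraries. In the order of its group means, from 4.99 TPM in transformed cells at 3% oxygen to 1.49 TPM in metastasizing cells at 3% oxygen, all neighbouring groups overlapped except immortalized cells at 3% oxygen and at atmospheric oxygen. KRT14 (chr17:39738531-39743147), the basal keratin, gave values above 0 only in primary and immortalized cells at 3% oxygen and in transformed cells at atmospheric oxygen, with group means of 0.204, 0.235 and 0.381 TPM.

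KRT7 (chr12:52626304-52645970), the most abundant type II keratin in primary and transformed cells, resembled KRT19 in its loss from immortalized cells. It measured 271 and 359 TPM in primary cells at atmospheric oxygen and 381 and 391 TPM at 3% oxygen. In immortalized cells it was 6.13 and 10.6 TPM at atmospheric oxygen and 10.9 and 7.35 TPM at 3% oxygen. It was high again in transformed cells at atmospheric oxygen, with 212 and 231 TPM, and lower at 3% oxygen, with 63.7 and 53.7 TPM. Metastasizing cells had 24.7 and 24.3 TPM at atmospheric oxygen and 19.7 and 13.1 TPM at 3% oxygen. Among neighbours in the order of its 8 group means only the 2 immortalized groups overlapped.

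KRT8 (chr12:53290971-53343738), the type II partner of KRT18, whose end overlaps it on the opposite strand, was less abundant than KRT18 in every library, most narrowly in replicate a of metastasizing cells at atmospheric oxygen. Its gene level was 50.7 and 52.7 TPM in immortalized cells at atmospheric oxygen and 30.0 and 29.7 TPM at 3% oxygen. Transformed cells had the lowest pair, 8.93 and 9.20 TPM, at atmospheric oxygen and 22.8 and 18.7 TPM at 3% oxygen. Primary cells had 16.4 and 31.1 TPM at atmospheric oxygen and 15.6 and 13.4 TPM at 3% oxygen. In metastasizing cells the gene level was 67.3 and 31.1 TPM at atmospheric oxygen and 34.3 and 18.8 TPM at 3% oxygen, and 1 short transcript described further on made up most of it in 3 of these 4 libraries.

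KRT81 (chr12:52679697-52685318), a type II keratin of the hair cortex, resembled KRT34 in immortalized cells. It was 2.14 and 2.97 TPM there at atmospheric oxygen and 43.4 and 35.1 TPM at 3% oxygen. In transformed cells the order was turned around, with 22.5 and 20.0 TPM at atmospheric oxygen and 4.19 and 3.60 TPM at 3% oxygen. Primary cells had 11.2 and 16.5 TPM at atmospheric oxygen and 25.7 and 18.6 TPM at 3% oxygen, and the 4 metastasizing libraries lay between 1.54 and 3.19 TPM. KRT80 (chr12:52562780-52585798), the remaining type II keratin, was 16.5 TPM in both transformed libraries at atmospheric oxygen and 14.1 and 15.6 TPM at 3% oxygen. It was 1.89 and 2.31 TPM in immortalized cells at atmospheric oxygen and 5.55 and 5.90 TPM at 3% oxygen, and the 2 metastasizing libraries at 3% oxygen lay far apart, at 15.1 and 4.95 TPM.

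To ask how each stage answered to low oxygen, the 16 libraries were fitted together with limma on log2(TPM + 0.5) over the protein-coding genes whose mean reached 1 TPM in a compared group. A gene was called at a Benjamini-Hochberg adjusted p under 0.01 over all genes tested and a change of more than 2-fold. In primary cells none of the 8 keratins was called between 3% and atmospheric oxygen, while 2.78% of all genes tested were called higher and 2.52% lower. At an unadjusted p under 0.05 there were 2 of 8. KRT34 was the nearest, with a log2 difference of 0.92 ± 0.34 (SE) and an adjusted p of 0.0652, and KRT18 differed by 0.01 ± 0.13.

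In immortalized cells 3 of 8 keratins were called higher at 3% oxygen, beside 2.13% of all genes, and none lower, beside 2.78%. The median difference was 1.06 for the 8 keratins and 0.11 for all genes tested. KRT18 rose by 1.24 ± 0.13 (adjusted p = 0.00014) and KRT81 rose by 3.71 ± 0.30 (adjusted p = 3.25e-05). The difference of KRT34 was 3.77 ± 0.34 on the log2 scale, given without a test since it was among the results known beforehand. KRT80 differed by 1.26 ± 0.36 but missed the threshold, with an adjusted p of 0.0235. KRT8, the partner of KRT18, had a log2 difference of -0.78 ± 0.37 with an adjusted p of 0.142.

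In transformed cells 2 of 8 keratins, both type II, were called lower at 3% oxygen, beside 2.58% of all genes, and none was called higher, beside 4.9%. KRT7 fell by 1.91 ± 0.26 (adjusted p = 0.000414) and KRT81 fell by 2.31 ± 0.30 (adjusted p = 0.000304). KRT8 differed by 1.15 ± 0.37 in the other direction, with an adjusted p of 0.0342, and KRT18 by -0.26 ± 0.13, with an adjusted p of 0.146. With protein-coding transcripts alone the rise of KRT8 was called, 1.19 (adjusted p = 0.00896). In metastasizing cells only KRT18 was called. It rose by 1.76 ± 0.13 (adjusted p = 1.24e-05), as 1 of 8 keratins called higher beside 3.06% of all genes, and none was called lower beside 4.6%.

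**Figure D3:**
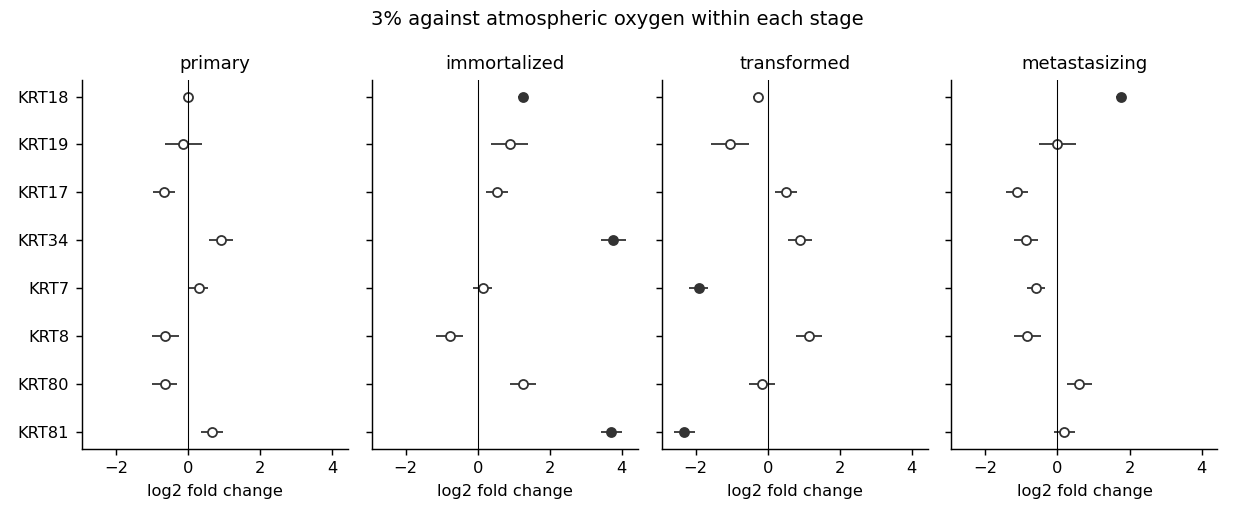
Log2 fold change of 8 keratins (vertical axis) at 3% against atmospheric oxygen (horizontal axis) in the 4 stages, one panel per stage; points are limma estimates, bars are standard errors, and filled points passed the adjusted p of 0.01 and the 2-fold limit. The filled points are KRT18, KRT34 and KRT81 in immortalized cells, KRT7 and KRT81 in transformed cells and KRT18 in metastasizing cells. The filled KRT34 point is a description, since this response was known when the genes were chosen.

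The oxygen effects were then compared between neighbouring stages by an interaction term, the difference of 2 log2 fold changes. Between primary and immortalized cells 3 of 8 keratins were called with a higher effect, beside 0.8% of all genes, and none with a lower one, beside 1.06%. The differences were 1.23 ± 0.19 for KRT18, 2.84 ± 0.48 for KRT34 and 3.04 ± 0.42 for KRT81. The KRT34 differences between primary, immortalized and transformed cells contain its oxygen response in immortalized cells, which was known when the genes were chosen, so they are a description with no test. The calls of KRT18 and KRT81 were lost with the replicate letter as a block (adjusted p = 0.0269 and 0.0405) and in several fits that left out 1 library. Over all genes this block gave 5 calls here in place of 235, so the loss was not particular to keratins.

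Between immortalized and transformed cells the effect was called lower for 4 of 8 keratins, beside 5.84% of all genes, and higher for none, beside 6.13%. KRT81 had the widest change, -6.02 ± 0.42 on the log2 scale (adjusted p = 1.27e-05), from a rise in immortalized cells to a fall in transformed cells. KRT18 changed by -1.51 ± 0.19 (adjusted p = 0.000227), and the value for KRT34 was -2.87 ± 0.48. KRT7 changed by -2.05 ± 0.37 (adjusted p = 0.00203), a call that was lost with the replicate block (adjusted p = 0.0165).

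Between transformed and metastasizing cells the effect was called higher for 2 of 8 keratins, beside 2.84% of all genes, and lower for none, beside 5.62%. KRT18 changed by 2.02 ± 0.19 (adjusted p = 7.78e-05) and KRT81 by 2.50 ± 0.42 (adjusted p = 0.002). The KRT81 call was lost with the replicate block (adjusted p = 0.0231). For KRT18 the 2 later interactions were called in all 26 alternative fits.

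The next comparisons followed the stages at a fixed oxygen level. They share their groups with the oxygen comparisons and with each other, so the values are given side by side and are not independent. For KRT34 the steps to and from immortalized cells use the libraries of its oxygen response known beforehand. Its values and calls there are a description. From primary to immortalized cells at atmospheric oxygen 4 of 8 keratins were called lower, beside 6.26% of all genes, and none higher, beside 5.98%. The median change was -1.73 for the 8 keratins and -0.09 for all genes tested. KRT19 fell by 7.72 ± 0.52 on the log2 scale (adjusted p = 1.44e-06) and KRT7 by 5.19 ± 0.26 (adjusted p = 2.19e-07). The hair keratins KRT34 and KRT81 changed by -2.68 ± 0.34 and -2.22 ± 0.30, both called. All 8 keratins had an unadjusted p under 0.05. KRT18 had an adjusted p of 0.00726, but its change of -0.55 ± 0.13 was under the 2-fold limit.

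The same step at 3% oxygen called 2 of 8 keratins lower, beside 5.04% of all genes, and none higher, beside 4.19%. KRT7 fell by 5.35 ± 0.26 (adjusted p = 1.9e-07) and KRT19 fell by 6.72 ± 0.52 (adjusted p = 5.14e-06), as at atmospheric oxygen. KRT34 differed by 0.16 ± 0.34 and KRT81 by 0.82 ± 0.30 (adjusted p = 0.0618). The drop of KRT7 and KRT19 on immortalization was measured at both oxygen levels.

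From immortalized to transformed cells at atmospheric oxygen 5 of 8 keratins were called higher, beside 13.2% of all genes, and 1 lower, beside 11.2%. The median change was 2.13 for the 8 keratins and 0.22 for all genes tested. KRT7 rose by 4.69 ± 0.26, KRT19 by 3.79 ± 0.52, KRT81 by 2.84 ± 0.30, KRT80 by 2.71 ± 0.36 and KRT34 by 1.55 ± 0.34. KRT8 fell by 2.45 ± 0.37 (adjusted p = 0.000208). The KRT34 call was lost in 3 of 26 alternative fits, without replicate a of immortalized cells at atmospheric oxygen or without either replicate of transformed cells at atmospheric oxygen.

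At 3% oxygen the same step called 1 of 8 keratins higher, beside 8.96% of all genes, and 3 lower, beside 7.38%. KRT7 rose by 2.64 ± 0.26 (adjusted p = 1.81e-05). KRT81 fell by 3.17 ± 0.30 (adjusted p = 1.29e-05) and KRT18 by 1.25 ± 0.13 (adjusted p = 2.69e-05). KRT34 fell by 1.32 ± 0.34, and this call was made in only 11 of 26 alternative fits. KRT34 and KRT81 thus went in opposite directions at the 2 oxygen levels. For KRT81 the interaction term given above is the test of that difference, and for KRT34 it is a description.

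From transformed to metastasizing cells at atmospheric oxygen 3 of 8 keratins were called lower, beside 1.72% of all genes, and 1 higher, beside 2.4%. The median change was -1.62 for the 8 keratins and 0.06 for all genes tested. KRT7 fell by 3.15 ± 0.26 (adjusted p = 3.3e-05), KRT81 by 3.08 ± 0.30 (adjusted p = 9.15e-05) and KRT18 by 1.75 ± 0.13 (adjusted p = 2.92e-05). The called rise was that of KRT8, 2.27 ± 0.37 (adjusted p = 0.00188), which was not present in its protein-coding transcripts: there the change was -0.09 with an adjusted p of 0.862. The KRT8 call was also lost without replicate a of metastasizing cells at atmospheric oxygen and without either replicate of transformed cells at atmospheric oxygen.

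At 3% oxygen this last step called 2 of 8 keratins lower, beside 3.93% of all genes, and none higher, beside 1.99%. KRT7 fell by 1.83 ± 0.26 (adjusted p = 0.000717). KRT17 fell by 1.43 ± 0.31 (adjusted p = 0.00648), but was called in only 11 of 25 alternative fits and not with the replicate block (adjusted p = 0.0148). For KRT34 and KRT80 the value depended on which of the 2 metastasizing libraries at 3% oxygen was used: KRT80 differed by -1.49 without replicate a and by 0.03 without replicate b. In 5 of the 13 comparisons the median gene moved by more than 0.1 on the log2 scale. The shift was 0.22 and 0.11 from immortalized to transformed cells at atmospheric and at 3% oxygen, 0.11 and -0.13 for oxygen in immortalized and in metastasizing cells, and -0.15 for the difference in oxygen effect between transformed and metastasizing cells. Rescaling the libraries to remove these shifts left all 37 keratin calls in place.

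**Figure D4:**
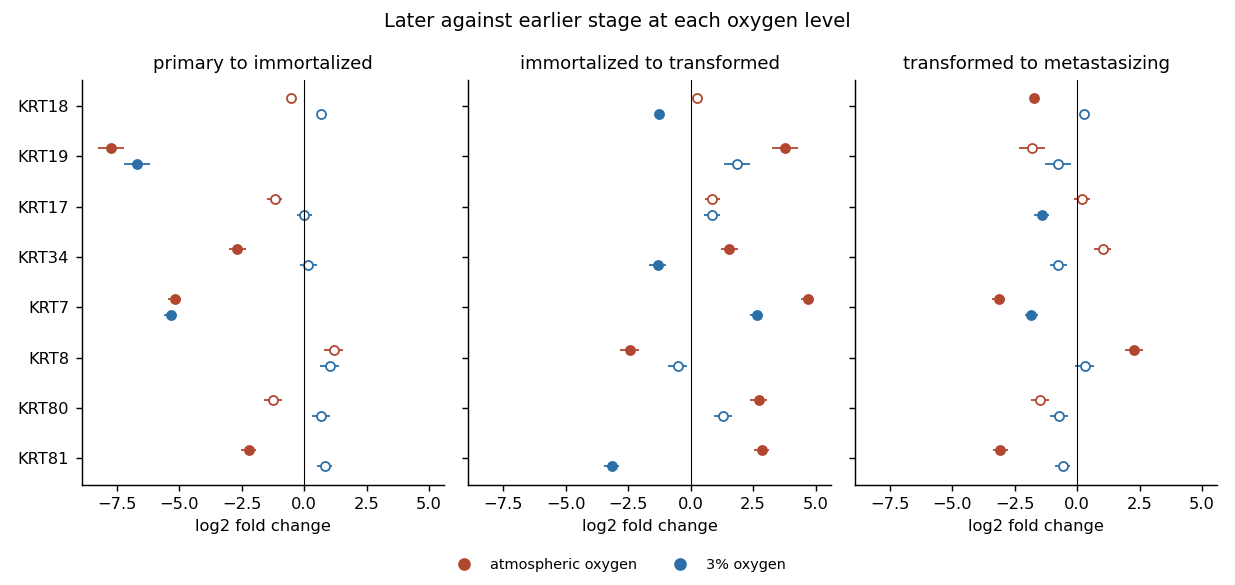
Log2 fold change of 8 keratins (vertical axis) from each stage to the next (horizontal axis, one panel per step) at atmospheric oxygen in red and 3% oxygen in blue; points are limma estimates, bars are standard errors, and filled points passed the adjusted p of 0.01 and the 2-fold limit. KRT7 is filled at both oxygen levels in all 3 steps, and KRT34 and KRT81 are filled on opposite sides of 0 in the middle step. The KRT34 points of the steps to and from immortalized cells are a description.

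The gene sums of KRT8 and KRT7 hid differences between transcripts. KRT8 has 16 annotated transcripts in the table. Its protein-coding transcripts together gave 30.1 and 41.7 TPM in immortalized cells at atmospheric oxygen, 16.9 and 15.6 TPM at 3% oxygen, and only 5.36 and 3.54 TPM in metastasizing cells at atmospheric oxygen. In those metastasizing libraries KRT8-209, annotated as a target of nonsense-mediated decay, was listed at 58.2 and 22.0 TPM, or 86.4% and 70.7% of the KRT8 sum. It was also listed at 19.6 TPM in replicate a of metastasizing cells at 3% oxygen and at 11.8 TPM in replicate b of primary cells at atmospheric oxygen, and at 0 in the other 12 libraries. Its high values were thus not shared by duplicates in 2 of the 3 groups that had any.

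KRT8-209 is 250 bases long. Of the 220 different stretches of 31 bases in KRT8-209, the default length by which kallisto matches reads, 27 occurred in no other transcript of the table that matched the annotation, and 150 also occurred in other genes, most often in KRT8 pseudogenes. The level of so short a transcript rests on few positions.

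KRT7 has 1 protein-coding transcript in the table, KRT7-201. It gave 63.3 to 74.9% of the KRT7 sum in primary libraries and 2.23 to 6.17% in immortalized libraries, where it was listed at 0.155, 0.293, 0.670 and 0.164 TPM. What remained of KRT7 in immortalized cells was spread over short transcripts without a defined coding sequence, led by KRT7-212. Counting coding transcripts alone, KRT7 fell by 8.28 on the log2 scale from primary to immortalized cells at atmospheric oxygen in place of 5.19, and its fall at 3% oxygen in transformed cells was 2.65 in place of 1.91. KRT18, by contrast, came almost wholly from its protein-coding transcripts, with 619 and 638 TPM in immortalized cells at 3% oxygen.

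**Figure D5:**
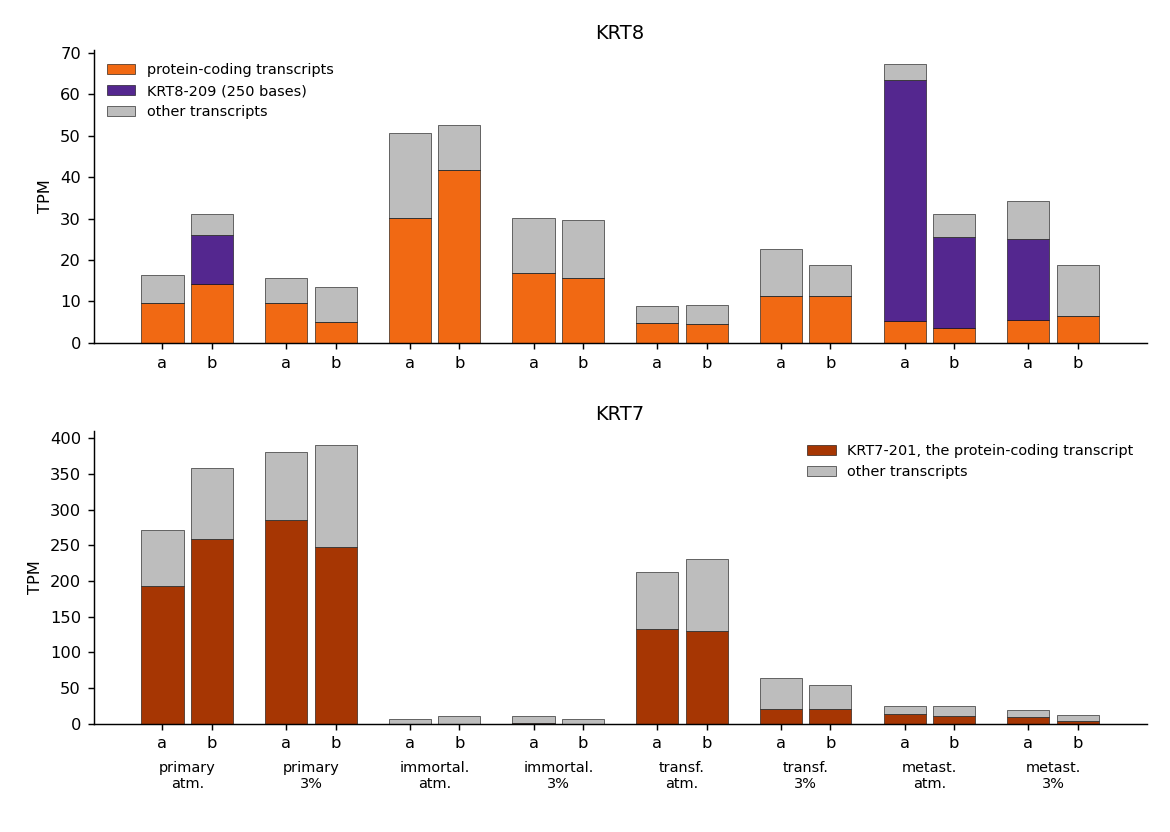
TPM of KRT8 (top) and KRT7 (bottom) in each library (horizontal axis, a and b within stage and oxygen level), stacked by kind of transcript. The KRT8-209 block is confined to 4 of the 16 libraries and fills most of the KRT8 bar in metastasizing cells at atmospheric oxygen, and the KRT7-201 block is missing in immortalized cells.

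Several of these genes share sequence with relatives, which limits how surely reads were assigned to them. Of the 31-base stretches of KRT81, 53.1% also occurred in another gene, most often KRT86, in whose span KRT81 lies on the opposite strand. The share was 33.4% for KRT14, 31.2% for KRT8, 24.8% for KRT17, 23.4% for KRT34 and 21.9% for KRT18, and 6.42% or less for KRT19, KRT7 and KRT80. KRT86 itself stayed between 0.0484 and 1.80 TPM. KRT8 pseudogenes took 8.11 to 54.6% of the TPM of KRT8 and its pseudogenes together, and KRT18 pseudogenes at most 2.22%. KRT8 transcripts that extend over KRT18 share their stretches with it (394 of 512 in KRT8-207), and since kallisto by default does not use strand, reads from the 2 genes cannot be told apart there. Adding pseudogene TPM to each gene kept all 37 calls.

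KRT34, whose oxygen difference in immortalized cells is described above, had a promoter sequence in the RefSeq table used (GRCh38.p14), as did KRT8, 2 of the 9 genes. The 250 bases before its start, chr17:41382307-41382556 on the minus strand, are shown with a TATAAA motif in capitals, which begins 31 bases before the start.

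KRT34 promoter: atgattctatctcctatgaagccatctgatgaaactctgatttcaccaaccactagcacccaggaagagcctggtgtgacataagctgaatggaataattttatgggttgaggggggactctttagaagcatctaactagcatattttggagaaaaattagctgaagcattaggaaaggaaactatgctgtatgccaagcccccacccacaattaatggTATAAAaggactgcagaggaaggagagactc

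TATAAA occurred on either strand in 10.7% of the 35116 promoters of this length. The short letters that form the core of hypoxia response elements, ACGTG and GCGTG, were searched on both strands, and neither was in this window of KRT34 or of KRT8. They occurred in 18.5% and 32.2% of all promoters. TGANTCA, the motif of AP-1 factors, was likewise not in either window and occurred in 6.57% of all promoters. These are matches of letters only.

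The 5 other keratins that passed 1 TPM were followed in the same comparisons. Each comparison of oxygen or stage called 1.99 to 13.2% of all genes higher and 1.72 to 11.2% lower. KRT10, a type I keratin of differentiating epidermis, was not called in any comparison of oxygen or stage, with an adjusted p of 0.0146 at 3% oxygen in primary cells as the lowest. KRT16, a type I keratin of wounded epidermis, was listed at 1.77 and 2.14 TPM in immortalized cells at 3% oxygen and at most 0.659 TPM in all other libraries. Its log2 difference between the oxygen levels there was 1.47 ± 0.26. KRT86 had 1.80 and 1.46 TPM in that same group. KRT16 and KRT86 reached a mean of 1 TPM in no other group and so passed the filter only through it. Their differences are therefore a description, given without a test. From immortalized to transformed cells at 3% oxygen KRT15, a type I keratin of basal cells, fell by 2.57 ± 0.56 (adjusted p = 0.00361). KRT16 was lower there by 1.77 ± 0.26 and KRT86 by 1.53 ± 0.24. KRT16 was also higher in immortalized than in primary cells at 3% oxygen, by 1.92 ± 0.26. KRT15 and KRT33B did not exceed 6.44 and 1.58 TPM in any library, and KRT33B was not called. KRT16, KRT86 and KRT33B share 31-base stretches with KRT14, KRT81 and KRT34, and the part of misassigned reads in these low values was not tested.

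Among 16 other intermediate filament genes, VIM was called lower from primary to immortalized cells at atmospheric oxygen, by 1.18 ± 0.11 on the log2 scale (adjusted p = 2.18e-05). Of 12 tested there, 5 were called lower, beside 6.26% of all genes, and 1 higher, beside 5.98%. NES, which encodes nestin, went from 142 to 163 TPM in primary cells and 86.8 to 101 TPM in immortalized cells to 1.99 to 4.30 TPM in transformed cells, a called fall of 5.21 ± 0.20 at atmospheric oxygen. LMNB1, a nuclear lamin, rose by 1.57 ± 0.12 at 3% oxygen in immortalized cells (adjusted p = 1.97e-05). It was the only gene of 10 tested that was called, beside 2.13% of all genes called higher and 2.78% lower. In the keratin-rich primary cells no gene of this list was called between oxygen levels by limma, beside 2.78% of all genes called higher and 2.52% lower. Of 12 tested, 5 had an unadjusted p under 0.05.

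Genes that anchor keratin filaments to desmosomes and hemidesmosomes had their own pattern. ITGA6, an integrin subunit of hemidesmosomes, was 41.0 and 54.7 TPM in primary cells at atmospheric oxygen and 287 and 293 TPM at 3% oxygen, a rise of 2.60 ± 0.22 (adjusted p = 3.37e-05). It also rose at 3% oxygen in immortalized cells, by 1.21 ± 0.22, and in metastasizing cells, by 2.12 ± 0.22. JUP, the desmosomal protein plakoglobin, rose from primary to immortalized cells at atmospheric oxygen by 1.61 ± 0.23 and fell from immortalized to transformed cells by 3.46 ± 0.23 (adjusted p = 4.93e-07). DSP, the plakin that binds keratins at desmosomes, was between 4.40 and 54.2 TPM and was not called in any comparison. Of the 19 genes in this list 7 to 9 were tested in each oxygen or stage comparison, and between none and 3 of them were called. Of all genes, 1.99 to 13.2% were called higher in these comparisons and 1.72 to 11.2% lower.

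Among 18 regulators known to act on keratin promoters 16 or 17 were tested in each of these comparisons. ETS2 rose by 1.97 ± 0.15 from primary to immortalized cells at atmospheric oxygen and fell by 1.93 ± 0.15 in the next step. FOSL1, an AP-1 subunit, stood at 133 and 129 TPM in metastasizing cells at atmospheric oxygen and at 377 and 225 TPM at 3% oxygen, a called rise of 1.15 ± 0.18 (adjusted p = 0.00102), and ETS1 rose there by 1.16 ± 0.20. With them 3 of 17 regulators tested were called higher there, beside 3.06% of all genes, and none lower, beside 4.6%. In immortalized cells the differences of FOSL1 and ETS1 at 3% oxygen were 0.06 ± 0.18 (adjusted p = 0.834) and 0.00 ± 0.20 (adjusted p = 0.998). A link between the regulators and the keratin levels was not tested. No regulator was called between oxygen levels in primary or in transformed cells by limma, with 8 and 5 at an unadjusted p under 0.05. Of all genes, 2.78% and 4.9% were called higher there, and 2.52% and 2.58% lower.

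Markers of other cell types were set beside these results. ELF3, an epithelial transcription factor, was 19.2 and 13.5 TPM in immortalized cells at atmospheric oxygen and at most 0.550 TPM in all other libraries, and that group also had the lowest means of KRT7, KRT19, KRT34 and KRT80 and the highest mean of KRT8. OCLN, the tight junction protein occludin, was 13.9 and 15.3 TPM in transformed cells at 3% oxygen and 6.97 TPM or less elsewhere. CDH1, the adhesion protein E-cadherin, was above 1 TPM in 2 libraries, replicate b of immortalized cells at 3% oxygen (2.59 TPM) and replicate a of metastasizing cells at 3% oxygen (2.80 TPM), and was not called in any comparison. EPCAM, an epithelial adhesion protein, was 1.44 and 0.654 TPM in primary cells at 3% oxygen and 0.0493 and 0 TPM in immortalized cells, lower by 1.51 ± 0.29 on the log2 scale. It reached a mean of 1 TPM only in primary cells at 3% oxygen, so this value is a description with no test. The median change of the 3 epithelial markers tested in that step was 1.01. CDH1 differed by 1.01 ± 0.66, and the mean of OCLN went from 0.396 to 1.81 TPM. Of 6 melanocyte markers the highest summed level was 5.72 TPM. Of 6 endothelial markers, 5 were in the table, and TEK reached 10.1 and 10.3 TPM in primary cells at 3% oxygen and 1.89 TPM or less elsewhere, with CDH5 at or below 0.291 TPM. The part of other cell types in the keratin levels was not tested. In bulk libraries fewer cells with a transcript and less of it per cell cannot be told apart.

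Across the 16 libraries KRT7 and KRT19 were the most alike of the 8 genes (Pearson r = 0.91 on log2(TPM + 0.5)), followed by KRT18 and KRT81 (r = 0.74) and KRT34 and KRT81 (r = 0.57). KRT7 and KRT8 were the least alike (r = -0.69). By gene sums the partners KRT8 and KRT18 were not among the pairs that varied together (r = -0.34). The KRT8 sums include the short transcript described above. That transcript made up 86.4% and 70.7% of KRT8 in metastasizing cells at atmospheric oxygen and 57.1% in replicate a at 3% oxygen. Both KRT8 correlations therefore hold for gene sums only, and protein-coding transcripts alone were not tested in this way. Of 13146 protein-coding genes, keratins included, those outside the keratin family most like KRT7 were GRIN2D (r = 0.91) and NAALADL1 (r = 0.91). Those most like KRT19 were CCDC8 (r = 0.97) and GRIN2D (r = 0.96). The closest to KRT18 were SSTR1 (r = 0.90) and RHOB (r = 0.88), to KRT8 IDS (r = 0.88) and AKR1A1 (r = 0.85), and to KRT80 TEAD4 (r = 0.94) and RNASEH2B (r = 0.91). KRT34 was nearest to FBXL2 (r = 0.89) and CEP55 (r = 0.89), KRT81 to SH3RF1 (r = 0.91) and NEK7 (r = 0.87), and KRT17 to COL8A1 (r = 0.82) and TIA1 (r = 0.81). These values describe the same 16 libraries, which fall into 8 pairs of duplicates, and the best of so many genes is high by selection.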

How the data were processed

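RNA from 16 cultures was sequenced with a stranded mRNA kit. The authors quantified the reads with kallisto 0.42.1 on GRCh37 and deposited TPM per transcript, without counts, so the depth behind a value is unknown and their count test was not run. Of 180253 transcripts, 151453 matched GENCODE 44 mapped to GRCh37 (88.2 to 90.1% of the TPM) and were summed per gene. The methods state default kallisto settings, which do not use strand.

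Levels were tested with limma 3.58.1 (R 4.3.3; trended variance) on log2(TPM + 0.5), all 16 libraries in one fit with 1 coefficient per group and 8 residual degrees of freedom, over the protein-coding genes whose mean reached 1 TPM in a compared group. A gene was called at a Benjamini-Hochberg adjusted p under 0.01 and a log2 change beyond 1. A fold change on this scale understates that of low genes. The fit was tested on simulated data. Alternatives changed the pseudocount, filter, scaling, libraries fitted, replicate block and transcripts summed, or left out 1 library each.

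The keratins and the gene lists were chosen with earlier results of these data known. Named genes were the 9 keratins, per keratin the 2 most alike genes, other keratins with a group mean of 1 TPM, and up to 5 genes of each list, those with the highest mean TPM. Promoter sequences came from RefSeq (GRCh38.p14). The sequence of KRT8-209 is not reported here.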

Additional observations from a re-analysis of the deposited data

Results flagged for a closer look

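The oxygen effects of 4 keratins differed between neighbouring stages by the interaction term of the limma fit, on the log2 scale. From primary to immortalized cells the effect was higher by 1.23 for KRT18, 2.84 for KRT34 and 3.04 for KRT81. From immortalized to transformed cells it changed by -2.05 for KRT7, -1.51 for KRT18, -2.87 for KRT34 and -6.02 for KRT81. From transformed to metastasizing cells it was higher by 2.02 for KRT18 and 2.50 for KRT81. The KRT34 values rest in part on the immortalized oxygen comparison that was known when the genes were chosen. With 2 libraries in each group no single library could be tested as an outlier.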

How the results depend on the processing

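Over 26 alternative fits, 16 of which left out 1 library, all 37 keratin calls were kept by another pseudocount (1 or 0.1), by rescaling and by adding pseudogene TPM. No filter, quantile scaling, the compared groups alone and coding transcripts alone kept 34 of 37, 36, 34 and 35, and fits without 1 library kept 31 to 36. Coding transcripts alone also added calls. KRT8 was higher at 3% oxygen in transformed cells (1.19), higher in its oxygen effect there than in immortalized cells (2.29), and higher from primary to immortalized cells at atmospheric oxygen (1.56). KRT17 was lower in that step (-1.79) and higher in the next (1.91). The called rise of KRT8 from transformed to metastasizing cells at atmospheric oxygen reversed to -0.09 with coding transcripts only, as KRT8-209 is left out there. That step had 7 calls with only the compared groups fitted. The same step at 3% oxygen went from 2 calls to 1 with no filter, with at least 5 TPM, with quantile scaling and with coding transcripts only. It went to 0 with the compared groups alone. Leaving out 1 library also changed which keratins were called in this step, by loss and by gain. For the oxygen effect, calls without 1 library ranged from 1 to 2 in metastasizing cells. Calls that the effect differed ranged in these fits from 0 to 4 between primary and immortalized cells. Between transformed and metastasizing cells they ranged from 1 to 4, and the compared groups alone gave 1. The cause of these changes was not tested, apart from KRT8.

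The letters a and b are not stated to pair cultures, and same-letter deviations correlated at -0.16 to 0.23 across the comparisons, so the block is given as a check only. The replicate block kept 31 of 37 calls. It left 1 call in the last step at 3% oxygen, 0 for the difference between primary and immortalized cells and 1 between transformed and metastasizing cells. Over all genes it gave 5 calls in place of 235 for the difference in oxygen effect between primary and immortalized cells. Between transformed and metastasizing cells that number was 439 in place of 1065. It gave 359 calls for oxygen in primary cells in place of 646, and 2918 from immortalized to transformed cells at atmospheric oxygen in place of 3016. A crossed pairing, chosen after seeing the data, gave 400 and 2930.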
